A study of Mus musculus with 52 samples.

Results

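Mouse spinal astrocytes were set against whole spinal cord, in control animals alone, to see which transcripts are concentrated on astrocyte ribosomes and which are left behind. The comparison used 10 of the 52 libraries of a study of mutant SOD1 mice, a model of amyotrophic lateral sclerosis: the 6 control astrocyte libraries (Astro-CTRL) and the 4 control spinal cord libraries at 8 months (SC-CTRL-8m), chosen by their labels. The astrocyte libraries came from male Non-Tg mice, which carry no mutant SOD1, at the stage labelled onset, with no age in their labels. They hold polyadenylated RNA pulled down with ribosomes whose protein RPL10A carries EGFP in one cell type (bacTRAP, translating ribosome affinity purification). The labels do not name the promoter that drives the tag in astrocytes. The spinal cord libraries came from male Non-Tg mice of the same stage and hold RNA of the whole tissue, astrocytes included. The series calls its libraries biological replicates, without saying that each is 1 animal. Beside them stand, where named, 4 astrocyte and 4 spinal cord libraries of male SOD1 G37R mice at onset. The G37R spinal cord libraries are labelled 8 months. Also set beside them are 4 motor neuron and 5 8-month oligodendrocyte libraries of male Non-Tg mice at onset. The last are 3 Non-Tg spinal cord libraries at 11 months, from 1 male and 2 female mice, labelled early symptomatic.

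Astrocytes are the glia that take up glutamate, buffer potassium, wrap synapses and send endfeet to blood vessels. They also store glycogen, make serine and lipids, and form networks through gap junctions. Pulling down tagged ribosomes reads the messages that one cell type is translating, and messages outside ribosomes or in other cells are lost to the extent that the purification works. A ratio over whole tissue is capped for transcripts that astrocytes supply most of, since the tissue then holds them too.

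The astrocyte and the spinal cord values come from tables that were normalized apart, so no test spans them. Levels are in FPKM-equivalents: FPKM counts read fragments scaled by transcript length and library size, and the deposited values were divided by 16806.6, a factor that cancels in ratios over the 8-month spinal cord. The 11-month spinal cord table is in FPKM as deposited, so in ratios over it the factor sets the level, and with it the sign of genes near 0. A gene was called higher or lower where the group means differed at least 2-fold and no astrocyte library overlapped with a spinal cord library, among genes whose group means averaged at least 1. The SE beside a log2 ratio comes from the spread of log2 values between libraries and does not cover the scale between the tables. Levels are means ± SD, with n = 6 astrocyte and n = 4 spinal cord libraries. Upper quartiles of the values above 0 were 22.5 to 23.2 in the astrocyte libraries and 20.2 to 20.4 in the spinal cord libraries, and sums were 716624 to 799734 and 585524 to 602533. Libraries correlated at r = 0.990 to 0.994 within the astrocyte group and 0.982 to 0.985 within the spinal cord group, across genes.

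Of 13312 genes compared, 2979 (22.4%) were called higher and 3732 (28.0%) lower in astrocyte libraries, and 6535 lay within 2-fold. The shares of 22.4% and 28.0% are the background for the list counts below. The median log2 ratio was -0.08. Depletion reached further than enrichment. An 8-fold enrichment was reached by 146 genes (1.10%) and a 16-fold one by 6, whereas 675 genes (5.07%) reached an 8-fold and 232 a 16-fold depletion. In RNA of a whole tissue, fewer cells of a type and less RNA per cell cannot be told apart. Overlap between libraries removed 24 genes from the higher and 42 from the lower side. The minimum level averages both groups, so a gene near 0 in one group could pass it through the other. At a minimum level of 5 the order of the counts reversed, with 2565 genes higher and 2274 lower, and 53.0% of the calls on the higher side. Putting every library on a common sum moved all ratios down, by 0.36 at the median, and left 1994 genes higher and 4731 lower, so that 29.7% of the calls were on the higher side instead of 44.4%. Of the genes named below, Apoe, Ldhb, Fgfr3, Slc38a3, Psat1, Gja1, Foxj1, Anxa4 and Hist3h2a were then under 2-fold, at 0.66 to 0.92, while Elavl3 (-1.14), Pcx (-1.07) and Slc2a1 (-1.27) passed 2-fold on the lower side. The microRNA row Mir5114 alone made up 5.25 to 8.63% of the sums of astrocyte libraries and 17.4 to 21.1% of those of spinal cord libraries. A common sum therefore rests partly on this row, and the sum without it was not tested.

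**Figure D1:**
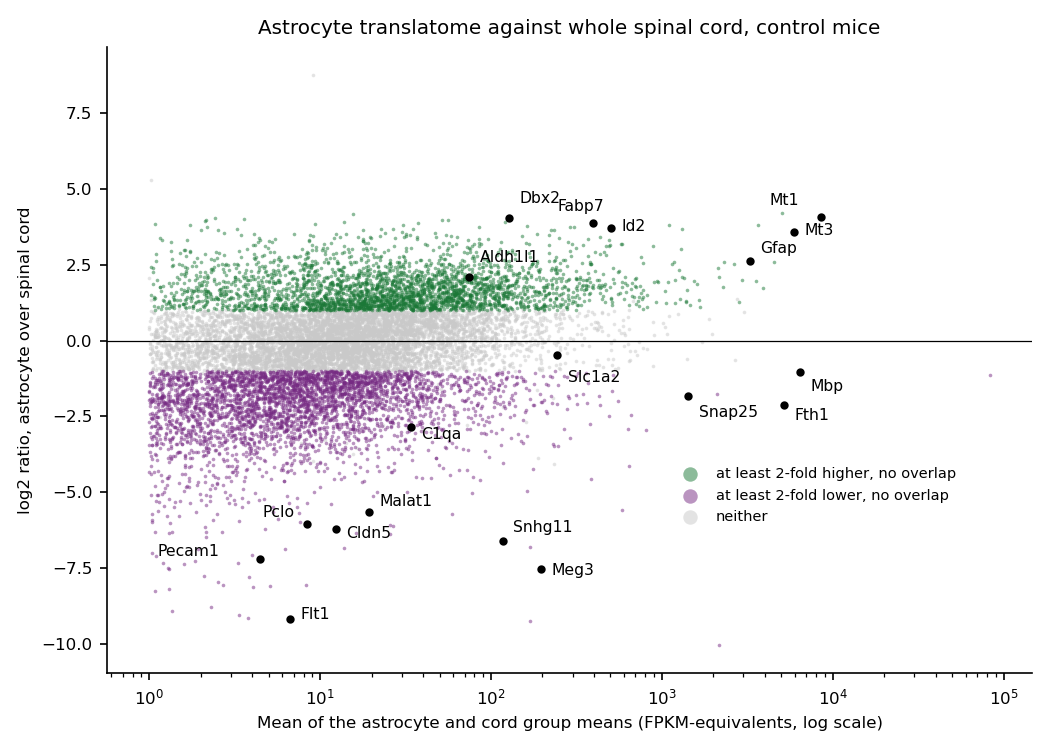
Log2 ratio of the control group means, astrocyte over 8-month spinal cord (vertical axis), against the mean of both group means in FPKM-equivalents (horizontal axis, log scale), with 1 point per gene compared; green points are the 2979 genes called higher, purple points the 3732 called lower and grey points the rest. Mt1 and Mt3 combine a high level with a high ratio, Slc1a2 lies just under 0, and Meg3 and Flt1 are far below it.

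Of the 3 astrocyte markers set for the label, 2 were higher in the astrocyte libraries and 1 was not. Gfap, the intermediate filament of astrocytes (mm9 chr11:102748650-102758514), was at 4671 to 7010.4 (median 5385) in astrocyte libraries and at 724, 1189, 781 and 931 in spinal cord libraries. Its groups were far apart, with means of 5616 ± 807 and 906 ± 208 and a log2 ratio of 2.63 (SE 0.18). Aldh1l1, the cytosolic 10-formyltetrahydrofolate dehydrogenase used to tag astrocytes (mm9 chr6:90500842-90549165), was at 98.4 to 131 (median 125) in astrocyte libraries, against 26.9, 30.9, 26.5 and 29.6 in spinal cord libraries. The lowest astrocyte library, replicate 5, was still well above all spinal cord libraries, and the log2 ratio was 2.08 (SE 0.08). Slc1a2, the glutamate transporter GLT-1 (mm9 chr2:102498840-102630941), went the other way at 115 to 276 (median 202) in astrocyte libraries and 286, 298, 274 and 274 in spinal cord libraries. Of its 6 astrocyte values, 5 were below every spinal cord value and the other, replicate 4, lay among them, for a log2 ratio of -0.46 (SE 0.19) that was not called. Against the 11-month control spinal cord, in a table of its own, the Slc1a2 ratio was 0.27, on a scale set by the factor between the tables. Slc1a2 has a longest annotated transcript of 11595 bases, and the median ratio was lower in longer transcripts, as described below for all genes.

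**Figure D2:**
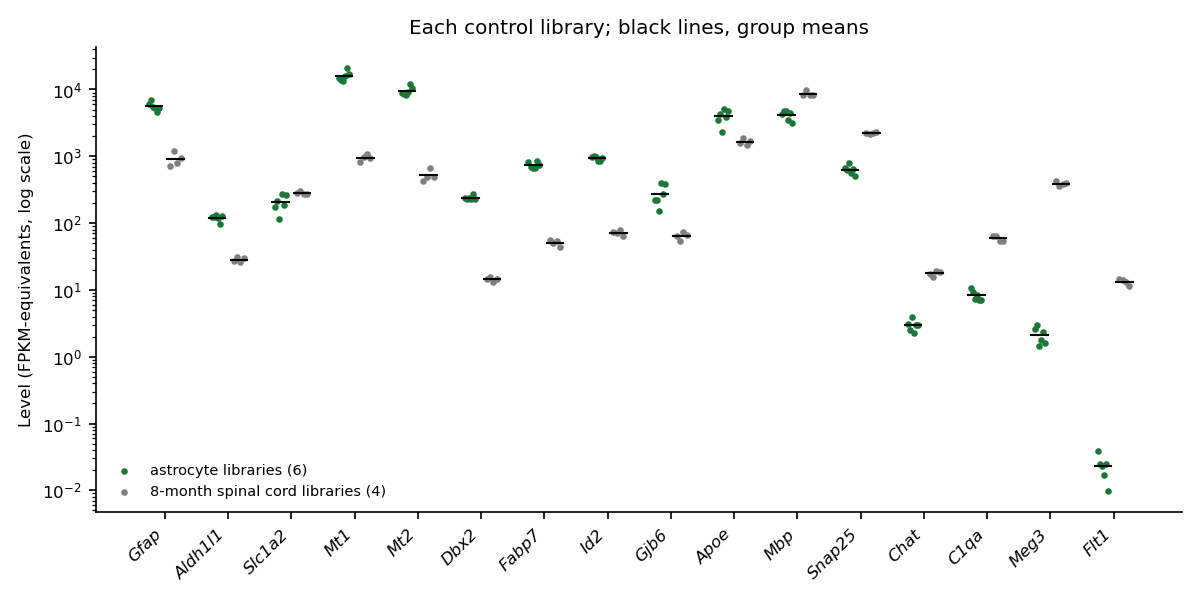
Level of 16 genes in each control library, in FPKM-equivalents on a log scale; green points are the 6 astrocyte libraries, grey points the 4 spinal cord libraries at 8 months, and black lines the group means. Gfap, Aldh1l1 and the most enriched genes are separated by group, Slc1a2 overlaps, and the neuronal, microglial and endothelial genes are lower in astrocyte libraries.

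The metallothioneins stood at the top of both the ratios and the levels. Metallothioneins are small cysteine-rich proteins that bind zinc and copper. Mt1 ranked 1 by level among rows of at least 200 bases in the astrocyte libraries, at 13498 to 20854 (median 15394), against 815, 971, 1087 and 945 in spinal cord libraries, with the highest astrocyte value in replicate 5. Its log2 ratio was 4.07 (SE 0.13). Mt2 was at 8319 to 11936 (median 9009.7) in astrocyte libraries, against 421, 489.6, 675 and 493 in spinal cord libraries, and its log2 ratio of 4.20 (SE 0.17) led the genes named by rule. Mt3, a metallothionein of the nervous system, was at 9200.3 to 12982 (median 10833) in astrocyte libraries, against 889, 895, 877 and 1039.6 in spinal cord libraries (3.56, SE 0.10). No library of one group came near the other for these genes. In motor neuron libraries Mt3 was above the spinal cord level (log2 ratio 1.35), whereas Mt1 and Mt2 were below it (-1.77 and -1.82); in oligodendrocyte libraries the 3 ratios were -2.19, -0.22 and -1.98. The 3 genes sit side by side on chromosome 8, and reads that match more than one of them could have been split by the authors' counting.

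Because these genes were high together, their promoter windows are shown. Each runs from 250 bases before to 50 bases after the start that RefSeq gives on GRCm38.p6, on the plus strand, and capitals mark the core of the metal response element, searched as TGCACNC and TGCGCNC on both strands. This element is the site of the zinc-sensing factor MTF-1.
Mt1, chr8:94178839-94179138: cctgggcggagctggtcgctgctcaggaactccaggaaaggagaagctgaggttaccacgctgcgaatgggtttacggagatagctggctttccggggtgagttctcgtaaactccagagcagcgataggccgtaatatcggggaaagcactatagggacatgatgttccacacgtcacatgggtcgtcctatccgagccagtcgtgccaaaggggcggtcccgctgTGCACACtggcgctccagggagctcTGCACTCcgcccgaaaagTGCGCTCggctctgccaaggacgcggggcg
Mt2, chr8:94172368-94172667: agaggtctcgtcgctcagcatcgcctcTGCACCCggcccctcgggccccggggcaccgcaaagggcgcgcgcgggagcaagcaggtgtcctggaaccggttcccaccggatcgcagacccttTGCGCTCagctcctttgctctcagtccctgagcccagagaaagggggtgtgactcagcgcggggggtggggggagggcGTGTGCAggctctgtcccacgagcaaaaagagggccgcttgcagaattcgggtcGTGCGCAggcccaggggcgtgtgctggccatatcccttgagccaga
Mt3, chr8:94152357-94152656: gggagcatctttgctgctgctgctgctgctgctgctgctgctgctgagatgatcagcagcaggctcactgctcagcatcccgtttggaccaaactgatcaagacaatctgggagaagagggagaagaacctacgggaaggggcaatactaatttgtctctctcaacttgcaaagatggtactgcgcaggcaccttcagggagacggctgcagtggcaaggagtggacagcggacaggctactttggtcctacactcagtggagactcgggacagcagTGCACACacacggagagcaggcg
The Mt1 window held 3 cores, the Mt2 window 4 and the Mt3 window 1. Of 32851 promoter windows of the same length, 25.7% held at least 1 core, 1.97% at least 3 and 0.517% at least 4. The Mt2 cores lay on both strands and those of Mt1 and Mt3 on the strand shown. A match of letters is a description and not evidence of binding.

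The 20 highest genes included the regulators Dbx2 and Id2. Dbx2, a homeodomain factor of the developing spinal cord, was at 227 to 276 (median 233) in astrocyte libraries, against 14.5 ± 1.11 in spinal cord libraries, with a log2 ratio of 4.05 (SE 0.07). Id2, an inhibitor of helix-loop-helix factors, averaged 937 ± 63.8 in astrocyte libraries and 72.1 ± 5.64 in spinal cord libraries (3.70, SE 0.07). Neither gene had an astrocyte library within 10-fold of a spinal cord library. Of 26 astrocyte transcription factors compared, 20 were called higher and 2 lower, with a median log2 ratio of 2.41. Id3 (3.66), Sox1 (3.37), Sox2 (3.34), Hes5 (3.00), Hes1 (2.67) and Sox9 (2.43), regulators shared with neural stem cells, were all on the higher side. The 2 lower ones were Zfhx4 (-3.18) and Zbtb20 (-2.56), whose longest transcripts have 13874 and 26901 bases. Once the trend over transcript length, described below, was subtracted, Zbtb20 was at 1.49, whereas Zfhx4 stayed on the lower side. Nfia, a factor of astrocyte formation, was at 12.4 ± 0.808 in astrocyte libraries and 9.52 ± 0.437 in spinal cord libraries and was not called. The noncoding gene E130114P18Rik, which overlaps the Nfia row, was at 70.0 ± 7.43 and 4.80 ± 0.0936 (3.87), and without a stated use of strand its reads and those of Nfia cannot be told apart where they overlap.

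Fabp7, the brain fatty acid binding protein of radial glia and astrocytes, was at 659.5 to 846 (median 723) in astrocyte libraries, against 54.9, 50.2, 54.9 and 43.7 in spinal cord libraries (3.86, SE 0.10). Dbi, the acyl-CoA binding protein, averaged 6837 ± 786 in astrocyte libraries and 493 ± 40.9 in spinal cord libraries (3.79, SE 0.09). Prdx6, a peroxiredoxin that also acts on phospholipids, averaged 2046 ± 127 and 148 ± 2.71 (3.79, SE 0.04). The calcium-binding S100a1 and S100a13 had log2 ratios of 3.69 and 3.73, and S100b, the member most used as an astrocyte marker, had 2.40. Pxmp2, a peroxisomal membrane channel (3.99), Cox7a1, a cytochrome oxidase subunit (3.77), Pdlim4, an actin-associated LIM protein (3.74), Hist1h2bc, a histone H2B (3.75), and Grifin, a galectin-related protein known from the lens (4.17), completed the annotated genes among the 20 highest. The other 6 were BC064078 (3.96), 2010001M06Rik (3.91, which overlaps Abhd11), Fam181a (3.90), Gm5089 (3.83), A330048O09Rik (3.82) and the E130114P18Rik row above. The 20 highest had been ranked by this ratio, so their values are a description.

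Glial filament and calcium-binding genes had a median log2 ratio of 2.80, with 9 of 11 called higher and 2 lower. Vim, the vimentin filament, averaged 158 ± 23.2 in astrocyte libraries and 56.2 ± 6.64 in spinal cord libraries (1.49). The lower ones were Nes (-1.63) and Synm (-1.56), the large filament proteins nestin and synemin. Their longest transcripts have 6126 and 7818 bases, whereas the median transcript length of the list was 1127 bases. Of all genes from 1000 to under 2000 bases, 46.2% were called higher. How far length goes with the high ratios of this list was not tested.

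Transport and membrane genes, the best known astrocyte functions, stood closer to the spinal cord level. In the list for glutamate and GABA uptake and glutamine synthesis, 3 of 11 genes were called higher and 1 lower. The share called higher, 27.3%, was near the 22.4% of all genes, and the median log2 ratio was 0.65. Glul, glutamine synthetase, averaged 1831 ± 209 in astrocyte libraries and 708 ± 28.3 in spinal cord libraries (1.37, SE 0.07). Slc38a3, a glutamine transporter, had 1.19, while Slc1a3, the glutamate transporter GLAST (0.65, SE 0.16), and Slc6a11, the GABA transporter GAT-3 (0.88, SE 0.16), were not called. Slc38a5, a glutamine transporter at low level, was the lower one (-6.31), with replicate 5 listed at 0.

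Among potassium, sodium, bicarbonate and water handling genes, 5 of 11 were called higher and 1 lower (median 0.94). Fxyd1, phospholemman, a regulator of ion transport, was at 732 to 1230.2 (median 1069) in astrocyte libraries and 113, 128, 99.3 and 124 in spinal cord libraries (3.18, SE 0.14). Slc9a3r1, a scaffold of membrane transporters, had a log2 ratio of 3.17. Aqp4, the water channel of the endfeet (0.89, SE 0.16) and Kcnj10, the potassium channel Kir4.1 (-0.05, SE 0.17), were not called. The cation channel gene Trpm3 was lower (-1.39), but at 0.98 with the length trend subtracted.

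In the gap junction, endfoot and adhesion list, 7 of 15 were called higher and 3 lower (median 0.36). Cldn10, a claudin, had 2.57, and the connexin genes Gjb2 (2.11) and Gjb6 (2.09) were higher. Gja1, connexin 43, was at 162 to 355 (median 268) in astrocyte libraries and 149, 123, 148 and 117 in spinal cord libraries, with a log2 ratio of 1.02 (SE 0.20). That call was lost without any 1 of astrocyte replicates 4 and 6 or spinal cord replicates 2 and 4, at 0.93, 0.93, 0.98 and 0.96. Megf10, a phagocytic receptor (-1.25, but 0.091 with the length trend subtracted), and Itgav, an integrin subunit (-1.32), were lower.

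Receptor and signalling genes were called higher in 12 of 32 cases and lower in 7 (median 0.76). Cxcl14, a chemokine (2.51), Adora2b, an adenosine receptor (2.15), Ntsr2, a neurotensin receptor (2.05), and Fgfr3, a fibroblast growth factor receptor (1.19), were on the higher side. The metabotropic glutamate receptor genes Grm5 (-3.73) and Grm3 (-2.36) were lowest in the list. Of 21 secreted synapse and matrix factors, 6 were higher and 6 lower, 28.6% each, near the 22.4% and 28.0% of all genes. Their median was -0.20, but 0.45 at a minimum level of 5 and 0.19 with the length trend subtracted. Mdk, midkine (2.69), and Wnt7b, a Wnt ligand (2.14), were highest, and the guidance cues Slit1 (-4.09) and Slit2 (-3.35) lowest. Sparc and Sparcl1, matrix proteins secreted by astrocytes, had ratios of 0.57 (SE 0.21) and -0.61 (SE 0.18), and neither was called.

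Metabolic genes were mostly at or above their spinal cord level. Of 16 serine, glycine and folate enzymes, 11 were called higher and 0 lower, with a median log2 ratio of 1.63. Dao, D-amino acid oxidase (2.78), Gcat, which degrades threonine (2.43), Phgdh, the first enzyme of serine synthesis (1.76), Gldc of the glycine cleavage system (1.65) and Psat1 (1.10) were among them, while Dld (0.12) and Aldh1l2 (-0.57) were the 2 least enriched. Glycogen, glucose and lactate genes were called higher in 9 of 19 cases and lower in 0 (median 0.95). Ppp1r3g, a subunit that directs phosphatase to glycogen (3.30), and Aldoc, the brain aldolase (2.60), led that list, followed among those named by Pygm, glycogen phosphorylase (1.56), and Ldhb, a lactate dehydrogenase subunit (1.27). Pcx, pyruvate carboxylase (-0.71), and Slc2a1, the glucose transporter GLUT1 of endothelium and glia (-0.90), had the lowest ratios and were not called, though both passed 2-fold lower on a common sum. In the lipid list 14 of 28 were higher and 3 lower (median 0.94). Apoe, the main apolipoprotein of brain, averaged 3975 ± 1003 in astrocyte libraries and 1652 ± 169 in spinal cord libraries (1.27), Acsbg1, an acyl-CoA synthetase, 676 ± 52.4 and 139 ± 4.39 (2.28), and Fabp5 420.4 ± 23.8 and 62.6 ± 4.50 (2.75). The cholesterol exporters Abca1 (-1.67) and Abcg1 (-1.67) were lower, and Abca1 was at 0.31 with the length trend subtracted.

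Aldoc varied little between libraries, at 7528 to 8139 (median 7726) in the astrocyte libraries against 1261, 1315, 1226 and 1337 in the spinal cord libraries. Other abundant genes in astrocyte libraries were Cst3, cystatin C (6046 ± 1649.5 against 1805 ± 123 in spinal cord libraries), Ckb, brain creatine kinase (5629.5 ± 163 against 1451 ± 109), Ndrg2 (3967 ± 293 against 665 ± 17.6) and S100b (3589 ± 343 against 681 ± 42.6). Their astrocyte and spinal cord libraries did not overlap, as in 2979 of the 3003 genes that were at least 2-fold higher.

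Genes linked to reactive astrocytes were near the spinal cord level in these control mice. Of 23 compared, 5 were called higher (21.7%, near the 22.4% of all genes) and 3 lower. Their median of 0.11 became -0.26 on a common sum, -0.22 at a minimum level of 5 and -0.65 against the 11-month spinal cord. Timp1, an inhibitor of matrix proteases (3.46 ± 0.840 against 0.576 ± 0.232 in spinal cord libraries, 2.58), and Psmb8, an immunoproteasome subunit (2.42), were highest. The Timp1 ratio was -1.27 against 11-month spinal cord. Cp, ceruloplasmin (-1.96), and Srgn, a proteoglycan of blood cells (-3.95), were lowest, and Serpina3n, a widely used marker of the reactive state, was not called (-0.29, SE 0.12).

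**Figure D3:**
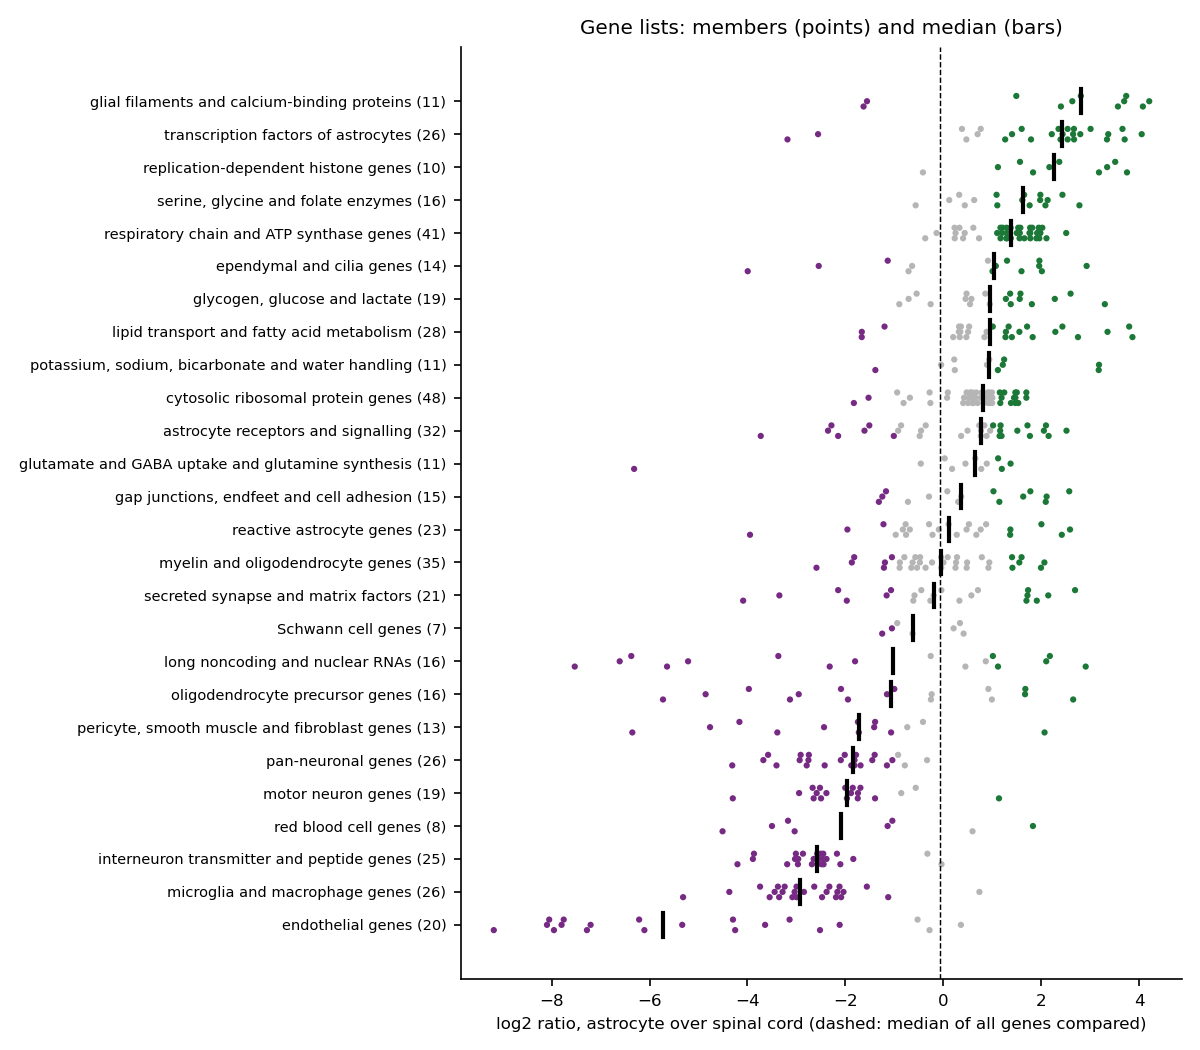
Log2 ratio of the group means, astrocyte over spinal cord, for each compared member of 26 gene lists (points; number of members in brackets), with the list median as a black bar and the median over all 13312 genes, -0.08, as a dashed line; green points are at least 2-fold higher, purple points at least 2-fold lower. The lists of astrocyte transcription factors and of metabolism lie right of the dashed line, neuronal, microglial and endothelial lists left of it, and the myelin list on it.

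The endothelial list had the lowest median of the 26 lists. Of its 20 genes, 17 were called lower and 0 higher, with a median log2 ratio of -5.72. Flt1, a receptor of vascular endothelial growth factor, was at 0.00979 to 0.0382 (median 0.0237) in astrocyte libraries, against 14.5, 13.8, 13.2 and 11.5 in spinal cord libraries (-9.18, SE 0.28). Abcb1a, the efflux pump P-glycoprotein (-8.09), Slco1a4, an organic anion transporter of the blood-brain barrier (-8.05), Pecam1, a junction adhesion molecule (-7.20), Cldn5, the tight junction protein claudin 5 (-6.21), and Ly6c1 (-6.10) followed. Bsg (-0.28) and Ramp2 (0.36), the list's highest members, were not called. Because the minimum level averages both groups, genes near 0 in astrocyte libraries, such as Flt1, passed it through their spinal cord level. Of 13 pericyte, smooth muscle and fibroblast genes, 8 were lower and 1 higher (median -1.73). Rgs5 (-6.35) and Abcc9 (-4.76) mark pericytes and were lowest, and the higher one was the actin-binding Tagln (2.06). Rgs5 (0.393 against 32.1) and Abcc9 (0.0908 against 2.47) also passed the minimum level through the spinal cord.

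Microglial genes past the minimum level were lower almost without exception, in 25 of 26 cases with 0 higher and a median of -2.92. The summed level of the list was 97.1 to 134.6 in astrocyte libraries and 579 to 716 in spinal cord libraries. C1qa, a complement subunit, was at 6.95 to 10.7 (median 7.85) in astrocyte libraries, against 64.8, 64.6, 54.7 and 54.4 in spinal cord libraries (-2.85, SE 0.13). Itgam, an integrin subunit (-5.31), Csf1r, the receptor of colony-stimulating factor 1 (-4.37), and P2ry12, a purine receptor of microglia (-2.19), were lower, Aif1 was the least depleted of those called (-1.13), and Sall1, a transcription factor, was not called (0.74). A gene was compared only where both group means were above 0, so none of the 26 could be at 0 in all astrocyte libraries. The minimum level averages both groups, so members such as Itgam (0.186 against 7.39) passed it through the spinal cord. Of the members under it, Cd163 had a ratio of 1.28 and F13a1 (-1.93), Mrc1 (-1.81) and Ptprc (-5.50) were negative.

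The 3 neuronal lists had medians above those of the endothelial and microglial lists and below that of the pericyte, smooth muscle and fibroblast list. Of 26 pan-neuronal genes, 23 were lower and 0 higher (median -1.85); of 25 interneuron transmitter and peptide genes, 23 were lower and 0 higher (median -2.57); and of 19 motor neuron genes, 16 were lower and 1 higher (median -1.97). Snap25, a synaptic vesicle fusion protein, was at 506 to 798 (median 635) in astrocyte libraries, against 2201, 2147, 2245 and 2307 in spinal cord libraries (-1.82, SE 0.10). Nefl, the light neurofilament, averaged 188 ± 16.2 and 1434 ± 114 (-2.93), and Chat, which makes acetylcholine in motor neurons, 2.96 ± 0.590 and 17.8 ± 1.56 (-2.59). The groups did not overlap for these genes, as in 3732 of the 3774 genes that were at least 2-fold lower. Neuronal messages remained measurable in every astrocyte library: the pan-neuronal list summed to 2706 to 3735 there and to 11189 to 12142 in spinal cord libraries. The lowest ratios in these lists belonged to the sodium channels Scn2a1 (-4.31) and Scn1a (-3.68), the glycine transporter Slc6a5 (-4.20), Lmx1b (-3.89), Lhx4 (-4.30) and the choline transporter Slc5a7 (-2.95). The minimum level averages both groups, so members such as Lhx4 (0.109 against 2.14) and Lmx1b (0.404 against 5.98) passed it through the spinal cord. Gad1, which makes GABA, had -2.39. Those nearest to 0 were Uchl1 (-0.33), Elavl3 (-0.79), Pvalb (-0.33), Slc17a7 (-0.04) and Esrrb (-0.57), none of them called (Elavl3 passed 2-fold lower on a common sum), and Anxa4 was the motor neuron list member called higher (1.13).

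Among the 20 most depleted genes named by rule, 4 more act at synapses or in neuronal excitability: Pclo (-6.06) and Bsn (-5.68), the scaffolds piccolo and bassoon, Cacna1e, a calcium channel (-5.89), and Glra1, the glycine receptor subunit that inhibits motor neurons. Glra1 was at 1.26 to 3.44 (median 2.03) in astrocyte libraries, against 111, 123, 111 and 119.7 in spinal cord libraries (-5.72, SE 0.22).

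Noncoding RNAs were also among the 20 most depleted. Meg3, an imprinted noncoding RNA (mm9 chr12:110779206-110809939), was at 1.45 to 3.00 (median 2.06) in astrocyte libraries, against 429.7, 359.9, 382 and 393 in spinal cord libraries (-7.53, SE 0.18), a mean 184-fold higher in the spinal cord libraries. Snhg11 (-6.61), Miat (-6.37) and Ipw (-6.06) were also among the 20, as were A930011O12Rik (-6.83) and A330023F24Rik (-5.98), which overlap microRNA genes, Cdr1 (-6.87) and Gm20594 (-9.24). Strand use in counting is not stated, so the Cdr1 row cannot be told apart from its antisense transcript. The rule also named Mir770, which lies within Meg3, and Mir1249; both are rows under 200 bases that were listed at 0 in 5 of 6 astrocyte libraries, and no ratio is given for them. In the list of long noncoding and nuclear RNAs as a whole, 8 of 16 were lower and 5 higher, with a median of -1.03 that was 1.01 without members over 4000 bases. Malat1, retained in nuclear speckles (-5.64), and Neat1, of nuclear paraspeckles (-2.32, but 1.17 with the length trend subtracted), were lower, while 2610017I09Rik (2.90) and Snhg1, a host gene of small nucleolar RNAs (2.17), were higher.

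Myelin and oligodendrocyte genes were called higher in 6 and lower in 6 of 35 cases, 17.1% each against 22.4% and 28.0% of all genes. Their median was -0.05, or 0.03 with the median over all genes set to 0. Mbp, myelin basic protein, was at 3117 to 4783 (median 4433) in astrocyte libraries, against 8229.8, 9821, 8301 and 8191 in spinal cord libraries (-1.05, SE 0.12), a call that was lost without astrocyte replicate 6 or spinal cord replicate 2, both at -0.98. Mog (-0.04) and Cnp (0.47), also myelin genes, were not called. Mbp still ranked 9 by level among rows of at least 200 bases in the astrocyte libraries, and the list summed to 10792 to 13974 there and 16297 to 18972 in spinal cord libraries. Opalin (-2.59) and Tspan2 (-1.87) were the lowest and Cryab (2.06) and Olig1 (1.99) the highest, whereas Olig2 was not called (0.92). How much of these values is RNA of other cells carried through the purification was not tested. Of 16 precursor genes, 9 were lower and 3 higher, with a median of -1.08 that was 0.99 at a minimum level of 5. The versican gene Vcan (-5.72), Pcdh15 (-4.85) and the receptor gene Pdgfra (-3.97) were low, and Tmem100 (2.65) and C1ql1 (1.67) high. Members such as Vcan (0.0926 against 4.90) passed the minimum level through the spinal cord.

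Ependymal and cilia genes were called higher in 8 of 14 cases and lower in 3, with a median of 1.04 that was -0.71 at a minimum level of 0.1. Their median transcript length was 1139 bases, and 46.2% of all genes from 1000 to under 2000 bases were called higher. Tekt4 (2.92) and Meig1 (2.01) were highest, Foxj1, the regulator of motile cilia, was at 33.3 ± 6.46 in astrocyte libraries and 15.8 ± 1.43 in spinal cord libraries (1.07; 0.998 and not called without astrocyte replicate 3), and Ak7 (-2.55) and Tmem212 (-4.00) were lowest. Of 7 Schwann cell genes, 2 were lower (28.6%, near the 28.0% of all genes) and 0 higher, with a median of -0.63. Pou3f1 (0.41) and Pmp22 (0.34) were highest and A330049M08Rik (-1.25) and Mbp lowest. Red blood cell genes were lower in 5 of 8 and higher in 1 (median -2.09), with Hbb-b2 (-4.51) and Hba-a1 (-3.50) lowest and Bpgm (1.83) and Hba-a2 (0.59) highest. The globin copies share reads, and their separate values are uncertain.

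Of 41 respiratory chain and ATP synthase genes, 31 were higher and 0 lower (median 1.37). Sdhc (2.51), Ndufa2 (2.10), Uqcrh (1.98) and Cox8a (1.96) were among them, and Sdha (-0.14) and Ndufs1 (-0.37) were lowest and not called. Over the same spinal cord, the median of this list was 1.69 in motor neurons and 0.28 in oligodendrocytes. Its median transcript length was 1445 bases, and 46.2% of all genes from 1000 to under 2000 bases were called higher. Of 10 replication-dependent histone genes compared, 9 were higher and 0 lower (median 2.26), from Hist1h2bc (3.75) and Hist1h4i (3.51) to Hist3h2a (1.11) and, not called, Hist3h2ba (-0.42). The histone list was above the spinal cord in motor neurons (median 1.16) and oligodendrocytes (1.36) too. Its median transcript length, 1692.5 bases, falls in the same length class. Cytosolic ribosomal protein genes were called higher in 13 of 48 cases (27.1%), near the 22.4% of all genes, and lower in 2. Their median of 0.80 was -0.26 with the length trend subtracted. Rpl22 (1.69) and Rpl10a (1.69) were highest, and Rps12 (-1.53) and Rpl10 (-1.83) lowest. Rpl10a encodes the protein that carries the tag, and reads of a tagged copy would be counted with it. Ribosomal protein and histone genes have near-identical copies, so their separate values are uncertain. Fth1, the ferritin heavy chain, was lower at 1921 ± 374 in astrocyte libraries and 8405 ± 641 in spinal cord libraries (-2.13), and its ratio was negative in motor neurons (-2.13) and oligodendrocytes (-1.58) as well. Sqstm1, an autophagy adaptor, was higher at 2289.8 ± 768 and 283 ± 7.87 (3.01), and so were its ratios in motor neurons (3.34) and oligodendrocytes (4.22).

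The same ratio to the same spinal cord libraries was taken for the 4 control motor neuron and 5 control 8-month oligodendrocyte libraries; these ratios share their spinal cord values and are only set side by side. Gfap had -4.20 in motor neurons and -2.73 in oligodendrocytes, Aldh1l1 -3.17 and -1.18, and Slc1a2 -6.58 and -5.11. Slc1a2 averaged 205 ± 59.5 in astrocyte libraries, 2.96 ± 0.566 in motor neuron libraries and 8.17 ± 6.49 in oligodendrocyte libraries, so that among the purified cells it was highest in astrocytes although it did not exceed the spinal cord. Dbx2 (-1.71 and -1.78), Fabp7 (-3.09 and -2.03), BC064078 (-3.55 and -3.44) and Pdlim4 (-2.31 and -1.80) were negative in both other cell types. Several of the 20 highest were positive elsewhere: Hist1h2bc (0.81 in motor neurons and 2.39 in oligodendrocytes), S100a13 (2.09 in oligodendrocytes), S100a1 (1.61), Dbi (1.66), Pxmp2 (1.51) and, in motor neurons, Cox7a1 (1.41).

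Levels were also set against those of the other purified cells directly, again across tables normalized apart. In 2729 of 13312 genes (20.5%) every astrocyte library was above every motor neuron and oligodendrocyte library. In 2109 genes (15.8%) every astrocyte library was below all of the others. The most depleted genes were low in all 3 purified cell types. Flt1 had ratios of -9.18 in astrocytes, -9.30 in motor neurons and -8.41 in oligodendrocytes, Meg3 -7.53, -7.19 and -6.58, and Malat1 -5.64, -4.86 and -6.09.

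**Figure D4:**
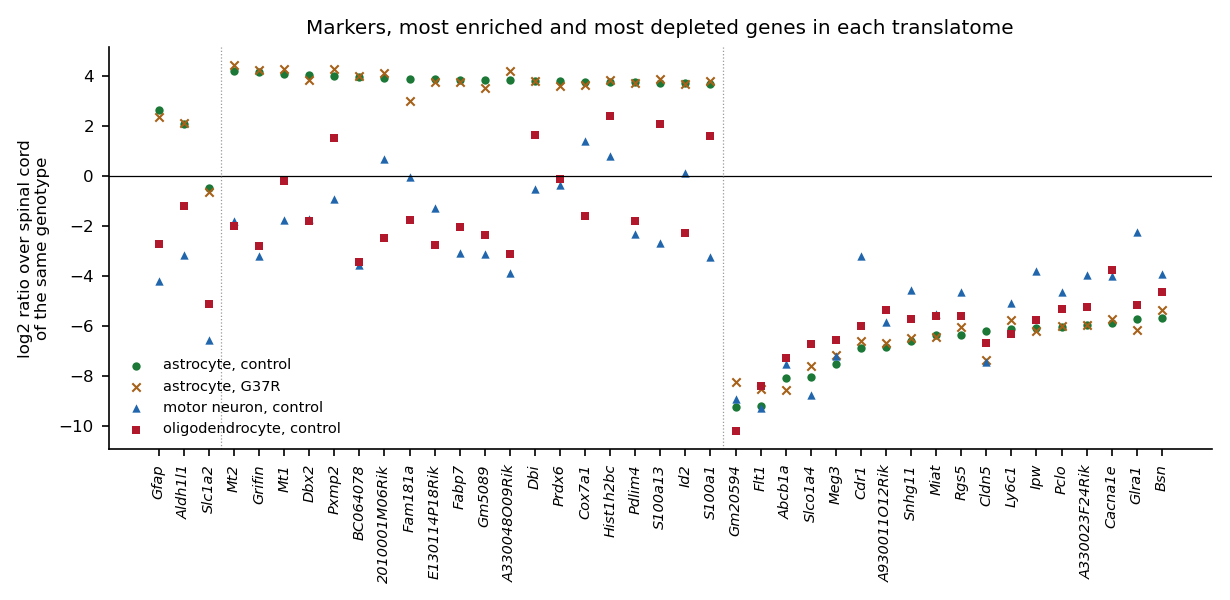
Log2 ratio over spinal cord of the same genotype for the 3 markers, the 20 most enriched genes and the 18 most depleted genes that are not microRNA rows, in control astrocytes (circles), G37R astrocytes (crosses), control motor neurons (triangles) and control oligodendrocytes (squares). Enriched genes separate astrocytes from the other cells in most cases, and depleted genes are negative in all 4 comparisons.

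Transcript length moved with the ratio over all genes. Among 13168 compared genes with a length (98.9%, longest GENCODE transcript of the symbol), the median log2 ratio was 1.29 under 1000 bases, 0.91 from 1000 to under 2000, 0.18 from 2000 to under 4000, -0.73 from 4000 to under 8000 and -1.95 at 8000 bases and over. Spearman's rho was -0.48 across genes, which are not independent replicates. In motor neurons the medians of the shortest and longest class were 1.12 and -1.80, and in oligodendrocytes 0.15 and -1.86. The longest class was lowest in all 3 cell types. The trend was subtracted as an added alternative: 2344 genes were then called higher and 2887 lower, of which 1688 and 2489 were also called as first computed. Slc1a2 then had 1.78, Kcnj10 0.69 and Zbtb20 1.49, whereas the median of the ribosomal protein list became -0.26 and that of the endothelial list -6.18. Of the called genes named here, 5 changed sign: Megf10, Trpm3, Abca1, Neat1 and Zbtb20, all on the lower side. The other called genes with a length kept their sign, and their values with the trend subtracted are not printed. Among the 20 highest genes the longest transcripts ran from 485 (Cox7a1) to 3460 bases (Dbx2). With members over 4000 bases left out of the lists, the medians were 1.20 for secreted factors, 1.77 for gap junctions and endfeet, 0.95 for precursors and 1.01 for noncoding RNAs. How far length accounts for the low ratios of the transporters was not tested.

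**Figure D5:**
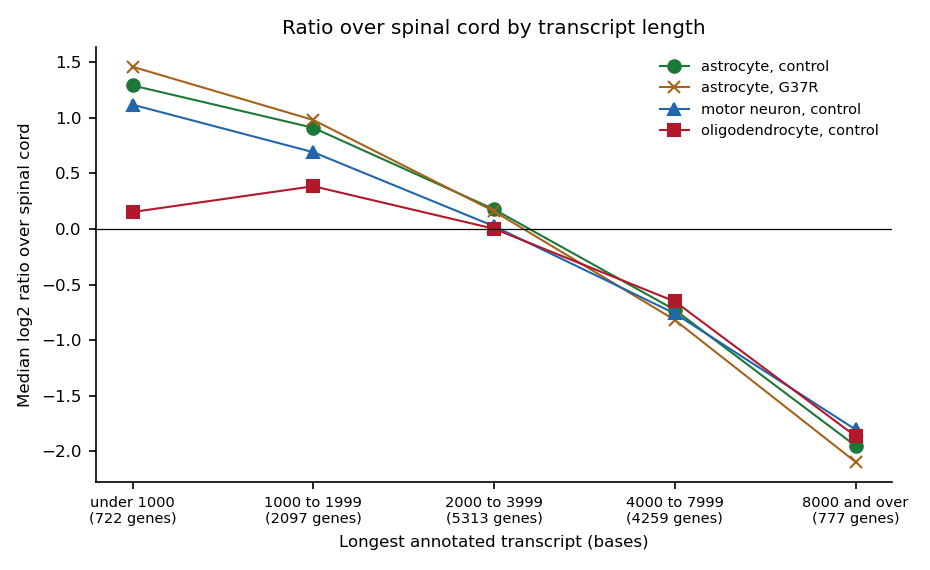
Median log2 ratio over spinal cord (vertical axis) of genes in 5 classes of longest annotated transcript (horizontal axis, bases, with the number of genes), for control astrocytes (circles), G37R astrocytes (crosses), control motor neurons (triangles) and control oligodendrocytes (squares). Each line is highest in 1 of the 2 shortest classes and lowest in the longest, from 1.29 to -1.95 in control astrocytes.

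The 6 astrocyte libraries were close to each other for most enriched genes and differed in certain lists. Over 2455 genes called higher with a level of at least 10, the median coefficient of variation was 8.87%, and 26 genes exceeded 30%. The order of the libraries differed between lists, a pattern described after the values were seen. Replicate 3 was the lowest astrocyte library for 12 of 15 gap junction and endfoot genes, 15 of 21 secreted factors, 22 of 32 receptors, 8 of 11 ion and water handling genes and 16 of 28 lipid genes, against 17.5% of all genes compared. Replicate 4 or 6 was highest for 12, 15, 24, 8 and 15 of them, against 21.6% of all genes. Gjb6 was at 226, 224, 151, 399, 276 and 385 in replicates 1 to 6. Cst3 was at 5419, 5981, 3393, 8240.3, 6034 and 7208 in the same order, and Slc1a2 at 175, 217, 115, 276, 186 and 261. All 3 were lowest in replicate 3 and highest in replicate 4. Replicate 3 was also lowest for 6 of 11 glutamate and GABA uptake genes and 10 of 23 reactive genes. For 6 of 20 endothelial (30%) and 6 of 26 microglial genes (23.1%) it was lowest too, above the 17.5% of all genes. By contrast, replicate 3 was lowest for 4 of 26 transcription factors and 1 of 16 serine, glycine and folate enzymes. It was highest for 34.6% of all genes compared, for 18 of 26 pan-neuronal genes, such as Snap25 at 664, 620.5, 798, 554, 649.6 and 506, and, near that share, for 14 of 35 myelin genes. Without replicate 3 the Slc1a2 ratio was -0.34 and the calls over all genes were 2991 higher and 3776 lower.

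Replicate 5 stood apart in another set. It was highest for 47 of 48 ribosomal protein genes, 34 of 41 respiratory chain genes and 8 of 10 histone genes, against 21.5% of all genes compared. It was also highest for 1207 of 2459 genes called higher with a level of at least 10, including rows with a repeated symbol or a library near 0, which the 2455 leave out. Hist1h4i was at 14.7, 17.1, 16.6, 21.0, 47.6 and 19.5 in replicates 1 to 6. Dao went the other way, at 96.5, 98.6, 97.6, 90.6, 48.1 and 96.0. Replicate 5 was far above the rest for Hist1h4i and far below them for Dao, while both genes stayed above every spinal cord library. Without it, 2960 genes were higher and 3709 lower.

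The ratio was repeated in libraries it had not used, 4 astrocyte and 4 spinal cord libraries of male SOD1 G37R mice, which carry mutant human SOD1, at the same stage and in the same tables. The log2 ratios of the 13200 genes compared in both had Pearson's r = 0.987 across genes and differed by a median of 0.13. Of 2966 genes called higher in controls and compared in G37R mice, 2759 (93.0%) were called higher there, where the background was 22.4%. Of 3691 called lower, 3494 (94.7%) were lower there, with a background of 28.6%, and 0 were called in opposite directions. Gfap had 2.36, Aldh1l1 2.10, Slc1a2 -0.66, Mt2 4.43, Dbx2 3.84, Fabp7 3.77, Flt1 -8.53 and Meg3 -7.17. The widest gap among the 20 highest was that of Fam181a, at 3.02 in G37R mice and 3.90 in controls. Gja1 (0.95) was under the threshold in G37R mice, so its 2-fold call did not carry over.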

How the data were processed

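The series holds 6 tables of values per gene and library, of which 5 were used. The motor neuron, astrocyte, 8-month oligodendrocyte and 8-month spinal cord tables hold a deposited signal per gene on a larger scale than FPKM, and the authors' normalization of each table is not given in the sources used here. The 11-month spinal cord table holds FPKM as deposited by the authors. Per the labels' protocols, poly(A) RNA was sequenced as single-end reads of 50 nt; mm9, TopHat2 (2.0.8b), Cufflinks and Cuffdiff stand in the submitters' processing notes without their settings. None of these values is a count, so depth is unknown, and no interval or limit that needs it is given. No per-library column went unused for want of a sample.

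Deposited values of the other tables than that of 11 months were divided by 16806.6, the median over 13717 genes of the 8-month over the 11-month control spinal cord mean, to give FPKM-equivalents. Of 23697 genes per table, 13493 averaged at least 1 over the group means. Of these, 181 had a group mean of 0 and no ratio, 164 in the astrocyte and 17 in the spinal cord group, and 180 of them were rows under 200 bases. The other 13312 were compared by the log2 ratio of group means with no pseudocount. No test was made, since the tables were normalized apart. Symbols listed more than once number 248, and each table has 2 lines with no values.

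The text names the 3 markers, the 20 highest and 20 lowest called genes with a higher group mean of at least 10, a symbol listed once and no library under 0.1 of its group median, and the 2 highest and 2 lowest compared members of each of 26 lists. Genes of the lists or of high level outside this rule were chosen after their values were seen: Id3, Mt3, Sox1, Sox2, Sox9, Hes1, Hes5, Sqstm1, Fabp5, Ndrg2, S100b, Acsbg1, Gjb6, Gja1, Ntsr2, Fgfr3, Uqcrh, Cox8a, Ckb, Phgdh, Psat1, Gldc, Pygm, Ldhb, Cst3, Vim, Apoe, Foxj1, Olig2, Aqp4, Slc6a11, Slc1a3, Sparc, Sparcl1, Cnp, Nfia, Mog, Serpina3n, Snap25, Nefl, Chat, Gad1, Fth1, P2ry12, C1qa, Neat1, Malat1, Pdgfra and Pecam1. The members and lists were chosen with earlier results of these data known. Of 595 distinct list members, 592 were matched, 11 by an older symbol. Transcript lengths are from GENCODE M21 and promoters from RefSeq. Gene coordinates are on mm9, counted from 1. Python 3.11.15, numpy 2.4.6, pandas 2.3.3, scipy 1.17.1, statsmodels 0.14.6 and matplotlib 3.10.9 were used, and the calls were tested on simulated data. Alternatives covered scaling, pseudocounts, minimum level, group medians, library overlap, each library left out, the 11-month spinal cord, the G37R libraries and, chosen after seeing the data, transcript length and short rows.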

Additional observations from a re-analysis of the deposited data

Results flagged for a closer look

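In 366 groups of libraries, 30 held 1 library far from the others, where chance alone gives about 1 in 20 groups. Levels are in FPKM-equivalents, each beside the range of the other libraries of its group.

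Astrocyte replicate 5 accounted for 10 of them. It was high for Dbx2 (276 against 227 to 239), Pxmp2 (118 against 91.7 to 95.7), 2010001M06Rik (335 against 195 to 222), S100a13 (727 against 506 to 560), Hist1h4i (47.6 against 14.7 to 21.0), Fth1 (2664 against 1660 to 1923), Hba-a1 (25.6 against 4.22 to 10.2) and A330023F24Rik (0.353 against 0.197 to 0.233). The same library was low for Dao (48.1 against 90.6 to 98.6) and Aldh1l1 (98.4 against 119 to 131).

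Astrocyte replicate 3 was low for BC064078 (81.9 against 107 to 115) and high for Gad1 (22.5 against 11.9 to 15.8). Astrocyte replicate 2 was high for Vim (202 against 140 to 163) and was the 1 library with a value for Mir770 (24.9 against 0), and astrocyte replicate 6 was the 1 library with a value for Mir1249 (17.9 against 0).

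Among spinal cord libraries, replicate 4 was high for Hist1h2bc (43.5 against 38.6 to 38.8), Mt3 (1040 against 877 to 895) and Sdhc (122 against 113 to 114) and low for Tspan2 (60.5 against 69.0 to 70.3) and Grm5 (14.5 against 16.1 to 16.3). Replicate 2 was high for Mbp (9821 against 8191 to 8301), Phgdh (22.4 against 19.7 to 20.1), Zbtb20 (5.25 against 4.05 to 4.16) and Pou3f1 (3.82 against 2.83 to 2.96) and low for Olig2 (23.7 against 28.4 to 28.9). Replicate 3 was high for Slc2a1 (143 against 105 at most), Ppp1r3g (5.08 against 2.62 to 2.86) and Hba-a2 (4.30 against 2.34 to 2.53) and low for Slc38a5 (1.49 against 2.34 to 2.38), and replicate 1 was high for A930011O12Rik (31.0 against 25.8 to 26.5).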

How the results depend on the processing

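No paired analysis was possible because the result comes from no test and no fit spans the tables, which were normalized apart. The counts of genes called higher and lower, 2979 and 3732, stayed within 1.5 times under the alternatives run, except that a minimum level of 5 left 2274 lower (and 2565 higher). Leaving out 1 library gave 2954 to 3001 higher and 3709 to 3776 lower. Setting the median log2 ratio to 0 shifted every ratio by 0.08 and a trimmed mean by 0.09, while a common sum moved the median by -0.36.

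With group medians Foxj1 (0.98), Gja1 (0.98) and Mbp (-0.90) were under 2-fold, and Mbp also with the median log2 ratio set to 0 (-0.97). Among list medians of at least 2-fold, 4 changed sign: ependymal and cilia genes had -0.71 at a minimum level of 0.1, which admits low rows; precursor genes had 0.99 at a minimum level of 5 and 0.95 without members over 4000 bases; and noncoding RNAs had 1.01 without such members. Against the 11-month spinal cord, Timp1 had -1.27, Rps12 0.76, Rpl10 0.34 and Hbb-b2 12.59, the last over spinal cord values close to 0. After subtraction of the length trend, Megf10 had 0.091, Trpm3 0.98, Abca1 0.31, Neat1 1.17 and Zbtb20 1.49. The level of the ratios over the 11-month spinal cord is set by the factor between the tables, and the cause of these changes was not tested. Of the values for single genes under an alternative, 3653 moved by less than the spread between libraries and 691 by more, and in 9 a called gene changed sign. Genes that were not called changed sign in 31 more, which are counted by their size, such as Slc1a2 at 0.27 and 1.78. For list medians the numbers were 558, 114 and, for medians of at least 2-fold, 4; smaller medians changed sign in 11 more, those of the myelin, reactive, secreted and ribosomal lists. The 3653 include alternatives that only filter calls and cannot change the ratio of a gene. These are the minimum levels of 0.1 and 5 (183 and 154 values), overlap allowed (183) and genes with a low library left out (183). Overlap allowed likewise could not change the 26 list medians. The common sum moved 164 gene values by more than the spread and 19 by less. With depth unknown, the error of low values rests on the spread between libraries alone.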
